A study of Homo sapiens with 9 samples.

Results

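The BCL2 family of death regulators was examined in MDA-MB-231, an established line of human triple-negative breast cancer cells. Its 10 members were taken by name, and their symbols were matched to the Ensembl identifiers of the deposited gene table of 63657 genes. All 10 were found, and all 10 passed the filter on low values that left 16987 genes to test. They comprise 4 protectors (BCL2, BCL2L1, MCL1 and BCL2A1) and 6 killers, of which 2 are pore formers (BAX and BAK1) and 4 are BH3-only killers (BBC3, PMAIP1, BCL2L11 and BID). The series holds 9 samples, covering ChIP-seq of histone H3 oxidised at lysine 4, ATAC-seq and RNA-seq. The comparison here is of RNA from 2 libraries of cells infected with a control short hairpin RNA (shControl) and 2 libraries of cells infected with a hairpin against LOXL2 (shLOXL2), a lysyl oxidase-like enzyme to which the histone oxidation is attributed. Both groups are the same cell line and both carry a hairpin, and the labels do not say how many hairpins were used, whether the cells were clonal or whether replicates were separate cultures. The p-values therefore measure the spread between these libraries, which may be technical.

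The family decides whether the outer mitochondrial membrane is breached. BAX and BAK1 assemble into pores that release cytochrome c. The protectors hold the pore formers and the BH3-only proteins in check by binding a short helix, the BH3 domain, in a groove on their surface. BH3-only proteins such as PUMA (BBC3), NOXA (PMAIP1), BIM (BCL2L11) and BID are switched on by stress and either occupy the protectors' groove or act on BAX and BAK1 directly. NOXA binds MCL1 and the BCL2A1 protein by preference, while BIM and PUMA bind every protector. Transcript levels do not give protein levels, and MCL1 and NOXA proteins in particular turn over quickly.

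The DNA just upstream of the start sites is shown for the members whose RNA passed the test and that have an entry in the RefSeq promoter table (build GRCh38.p14), and for BAX, which did not pass and whose window holds the most E-boxes. Of the 10 members, 9 had an entry, with 14 windows in all because BCL2L1 and BID have several starts. MCL1 had none. Each run is the 250 bases before the start, 5′ to 3′ on the gene's own strand, and capitals mark the motifs named after the sequences.
BCL2 (chr18:63319770-63320019, minus strand): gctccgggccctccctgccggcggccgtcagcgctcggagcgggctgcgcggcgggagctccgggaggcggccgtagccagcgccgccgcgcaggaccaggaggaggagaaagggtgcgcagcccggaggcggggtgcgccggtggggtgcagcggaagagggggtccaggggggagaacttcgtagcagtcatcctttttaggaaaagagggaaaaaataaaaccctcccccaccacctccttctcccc
BCL2L1, upstream start (chr20:31723964-31724213, minus strand): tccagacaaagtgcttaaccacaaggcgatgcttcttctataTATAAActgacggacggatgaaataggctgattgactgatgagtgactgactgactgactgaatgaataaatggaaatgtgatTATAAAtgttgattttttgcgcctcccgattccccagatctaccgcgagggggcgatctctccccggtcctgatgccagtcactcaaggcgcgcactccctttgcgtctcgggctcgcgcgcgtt
BCL2L1, downstream start (chr20:31722869-31723118, minus strand): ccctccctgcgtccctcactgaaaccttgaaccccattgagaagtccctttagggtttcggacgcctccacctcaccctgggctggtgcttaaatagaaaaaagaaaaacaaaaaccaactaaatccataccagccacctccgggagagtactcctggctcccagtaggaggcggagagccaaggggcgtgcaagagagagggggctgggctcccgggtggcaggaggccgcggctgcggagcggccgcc
BBC3 (chr19:47232668-47232917, minus strand): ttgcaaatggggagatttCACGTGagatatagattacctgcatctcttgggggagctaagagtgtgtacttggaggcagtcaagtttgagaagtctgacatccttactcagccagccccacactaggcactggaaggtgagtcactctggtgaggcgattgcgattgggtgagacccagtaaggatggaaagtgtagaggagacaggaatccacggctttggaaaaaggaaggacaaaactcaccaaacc
BAX (chr19:48954625-48954874, plus strand): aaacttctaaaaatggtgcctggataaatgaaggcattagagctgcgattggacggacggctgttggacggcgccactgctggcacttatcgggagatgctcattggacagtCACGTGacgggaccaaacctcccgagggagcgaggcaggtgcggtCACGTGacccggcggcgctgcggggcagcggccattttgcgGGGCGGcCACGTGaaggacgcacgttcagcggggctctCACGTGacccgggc

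The motifs were searched on both strands in the same 250 bases of all 35116 windows of the table. They were the GC box (GGGCGG), the E-box bound by MYC (CACGTG), the TATA box (TATAAA), the FOXO site (GTAAACA), the STAT site (TTCNNNGAA), the E2F sites (TTTCCCGC, TTTCGCGC, TTTGCCGC or TTTGGCGC), and the NF-kB site by its usual consensus. The marked motifs do not overlap one another in the printed sequences. The E-box was in 4 of the 14 member windows, against 6.34% of all windows, and by gene in 3 of 9. There was 1 match in BBC3, 4 matches in BAX and 1 match in each of 2 overlapping BID windows. The GC box was in 8 of the 14, against 42.6% of all windows. However, 4 of these 8 are BID windows in overlapping pairs that share matches, and by gene the GC box was in 5 of 9. The STAT and FOXO sites were each in 1 of the 14, against 6.57% and 2.98% of all windows. The E2F and NF-kB sites were each in 0 of the 14, against 2.79% and 5.21%. The letters TATAAA were in 2 of the 14, against 10.7% of all windows. The BCL2A1 window has 1 match and the upstream BCL2L1 window 2, which start at bases 43 and 126 of the 250. Neither the downstream window of BCL2L1 nor that of BCL2 holds any of these motifs. The BCL2 window is 70.0% G and C and that of BBC3 49.2%, where the median of all windows is 58.0%. These matches describe letters in a short window, not sites in use.

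The hairpin's target, LOXL2, was measured at 85.5 FPKM (replicate 1) and 84.5 FPKM (replicate 2) with the control hairpin, and at 15.2 and 12.1 FPKM with its own, 16.1% of the control mean. Its log2 change was -2.56 ± 0.12 (SE, limma adjusted p = 0.0124), and it missed the threshold without shControl replicate 1 (adjusted p = 0.157) or replicate 2 (0.154). FPKM is fragments scaled by transcript length and by library depth, so it allows levels of different genes to be set side by side. Summed over all genes, FPKM ran from 1221571 to 1244377 in shControl and from 1330441 to 1369375 in shLOXL2. Markers of the line fitted its name, with VIM at 2011 FPKM or more in every library and ESR1 and PGR below 0.0822 FPKM, although ERBB2 stood at 26.1 to 29.8 FPKM. Of 12 markers of blood, fibroblast, endothelial and liver cells, 3 were listed at 0 in all libraries, CD3E and PECAM1 among them, and COL1A1, PDGFRB and KDR averaged at least 1 FPKM. The 12 summed to 7.62 and 8.98 FPKM in shControl and to 13.7 and 11.7 FPKM in shLOXL2, of which COL1A1 gave 4.12 and 4.73 FPKM and then 8.02 and 7.43 FPKM. The part of this difference in the results below was not tested.

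The family did not move as a block. Between shLOXL2 and shControl, 2 of the 10 members rose (the protector BCL2L1 and the BH3-only killer BBC3), 2 fell (the protectors MCL1 and BCL2) and 6 did not pass the test. The test was limma on log2(FPKM + 1) over all 16987 genes, with Benjamini-Hochberg adjusted p below 0.05. By the same rule 8.35% of all tested genes rose and 8.54% fell, 16.9% together, which is below the family's 4 of 10. All 10 members are protein-coding, however, and the tested genes are of every class. In a fit of the 11216 protein-coding genes alone, 2136 genes rose and 2178 fell, and again 2 members rose and 2 fell. The family's count was thus close to the share over protein-coding genes. The list was drawn up with results of these data known. Protectors went both ways: 1 rose and 2 fell, and their median log2 change was -0.22. Of the killers 1 rose and 0 fell, and all 6 had a positive log2 change, as did 8380 of all 16987 tested genes. PMAIP1 and BCL2L11 turned negative in some fits with a library left out. With quantile normalization the log2 change was 0.018 for BAX and 0.017 for PMAIP1, against 0.082 and 0.039 as reported. Those of BAK1, BBC3, BCL2L11 and BID were slightly larger than reported. The median of the killers was 0.084, where the median over all tested genes was -0.0041.

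**Figure D1:**
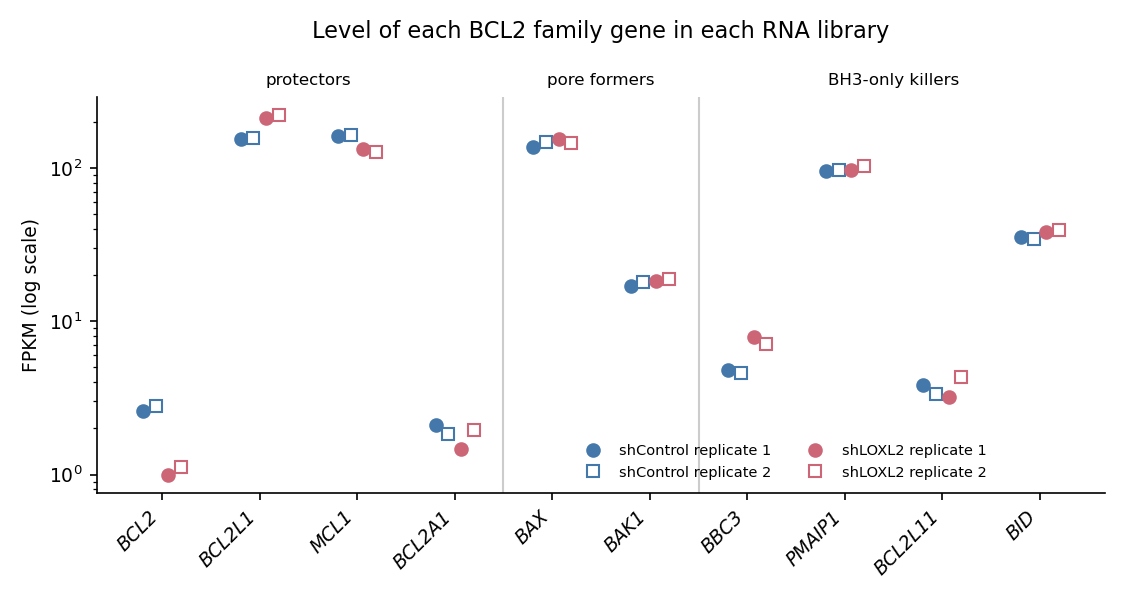
Level of each member in each of the 4 RNA libraries, in FPKM on a log axis, with shControl in blue, shLOXL2 in red, filled circles for replicate 1 and open squares for replicate 2. BCL2L1, MCL1, BAX and PMAIP1 lie at 95.8 FPKM or more in every library and BCL2, BCL2A1, BBC3 and BCL2L11 at 7.85 FPKM or less, and the groups stand farthest apart for BCL2, BCL2L1, MCL1 and BBC3.

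BCL2L1 (ENSG00000171552) encodes the long-lived protector BCL-XL. The control pair read 155 and 157 FPKM, and the knockdown pair 212 and 222 FPKM. Both shLOXL2 libraries lie above both controls, with a gap of 55.1 FPKM between the groups, against SDs of 1.37 and 7.23 FPKM (n = 2 per group). The mean was 1.39-fold higher, and the log2 change was 0.47 ± 0.038 (SE, limma adjusted p = 0.0162). Over all tested genes, 16.1% changed by more in absolute log2 terms. BCL2L1 also yields a short splice form that promotes death, which a gene-level value cannot tell from the long one.

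MCL1 (ENSG00000143384), the short-lived protector that many breast cancer lines depend on, went the other way. It stood at 161 and 162 FPKM in shControl and at 133 and 127 FPKM in shLOXL2. The groups do not overlap, with a gap of 27.3 FPKM against SDs of 1.32 and 4.78 FPKM, so that 80.4% of the control mean was left. The log2 change was -0.31 ± 0.040 (SE, limma adjusted p = 0.0286), a small one, since 28.7% of tested genes changed by more. In the control cells MCL1 and BCL2L1 were among the more abundant transcripts, with 5.86% and 6.08% of the tested protein-coding genes above them in FPKM.

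BCL2 (ENSG00000171791), the founding member and the target of venetoclax, was scarce and became scarcer. The control pair read 2.60 and 2.81 FPKM, and the knockdown pair 0.999 and 1.11 FPKM. Both shLOXL2 libraries lie below both controls, and the mean fell to 39.0% of the control mean. On the log2(FPKM + 1) scale the change was -0.85 ± 0.11 (SE, limma adjusted p = 0.0305). That scale understates the change of so low a gene, whose ratio of mean FPKM corresponds to a log2 value of -1.36. With a pseudocount of 0.1 FPKM in place of 1 the log2 change was -1.28, and with 5 FPKM it was -0.35, past the threshold in both cases (limma adjusted p = 0.0247 and 0.0294). BCL2 averages under 5 FPKM and so is absent from a fit limited to genes at 5 FPKM or more. In control cells 90.9% of tested protein-coding genes stood above it.

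BCL2A1 (ENSG00000140379), a protector under NF-kB control in blood cells, was as scarce as BCL2. It stood at 2.09 and 1.84 FPKM in shControl and at 1.48 and 1.95 FPKM in shLOXL2. The groups overlap, and the log2 change of -0.13 (95% interval -0.57 to 0.31, limma adjusted p = 0.574) did not pass. The interval reaches past the log2 change seen for MCL1 and falls short of that of BCL2, so a fall of the log2 size of MCL1 is not excluded. The log2(FPKM + 1) scale understates changes of so low a gene, so equal log2 values are not equal ratios for BCL2A1 and MCL1.

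Because the abundant protectors BCL2L1 and MCL1 moved in opposite directions, the make-up of the pool of the 4 protectors changed more than its size. BCL2L1 and MCL1 together gave 98.5% and 98.6% of the summed protector FPKM in shControl and 99.3% and 99.1% in shLOXL2. The share of BCL2L1 was 48.4% in both shControl libraries and 61.0% and 63.2% in shLOXL2, while that of MCL1 was 50.1% in both and then 38.3% and 36.0%. BCL2L1 transcripts numbered 0.965 and 0.966 per MCL1 transcript in shControl, so they stood nearly level, and 1.59 and 1.76 per MCL1 transcript in shLOXL2. These shares and ratios are taken within a library, so a common scale factor of that library cancels. BCL2 gave 0.811% and 0.868% of the protector sum in shControl and 0.287% and 0.316% in shLOXL2. The libraries do not overlap in any of these quantities, which carry no p-value because they rest on members already known to differ.

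**Figure D2:**
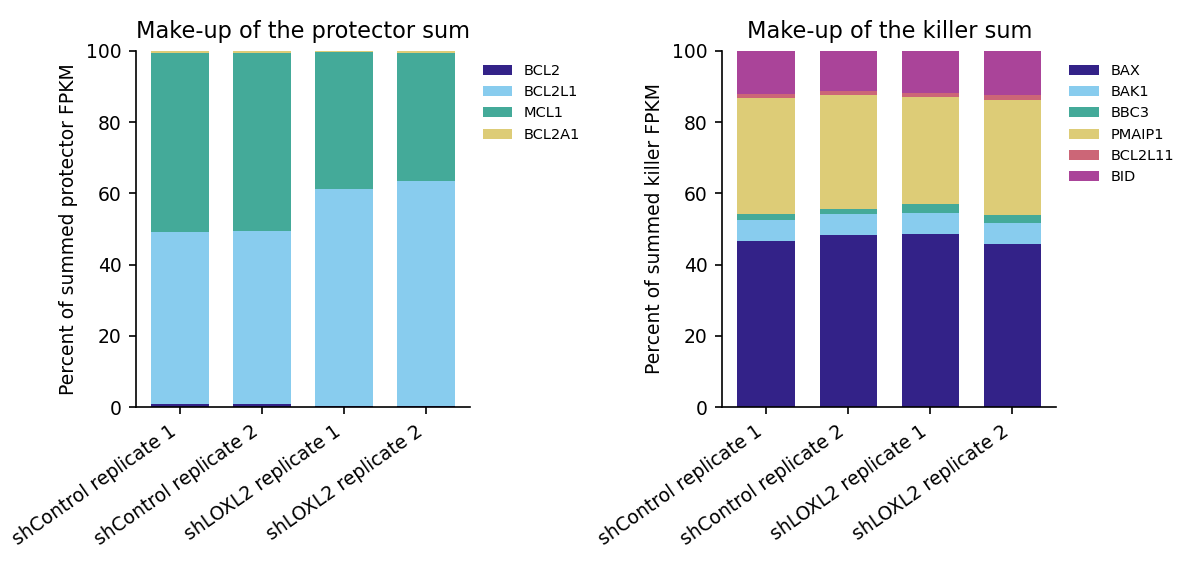
Share of each gene in the summed FPKM of the protectors (left) and killers (right), in percent, with 1 bar for each library. The BCL2L1 share rises from 48.4% in both shControl libraries to 61.0% and 63.2% in shLOXL2, while BAX holds between 45.8% and 48.6% of the killer sum in all 4.

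The pore formers showed no change that passed. BAX (ENSG00000087088), the cytosolic pore former that moves to mitochondria, stood at 137 and 146 FPKM in shControl and at 155 and 145 FPKM in shLOXL2. The second shLOXL2 library lies between the controls, and the log2 change was 0.082 (95% interval -0.092 to 0.26, limma adjusted p = 0.406). BAK1 (ENSG00000030110), which resides on the mitochondrial membrane, stood at 17.0 and 17.9 FPKM and at 18.4 and 18.8 FPKM. Its groups do not overlap, but the gap of 0.487 FPKM is smaller than the SD of 0.608 FPKM between controls, and the log2 change of 0.086 (95% interval -0.045 to 0.22) did not pass (limma adjusted p = 0.269). For both genes the interval excludes a rise as large as that of BCL2L1. BAX outnumbered BAK1 by 8.04 and 8.19 to 1 in shControl and by 8.44 and 7.70 to 1 in shLOXL2, with overlapping groups. The level of BAK1 is uncertain because its pseudogene BAK1P1 was listed at 11.8 to 13.9 FPKM and may share its reads.

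Among the BH3-only killers, BBC3 (ENSG00000105327), which encodes PUMA, rose. It stood at 4.78 and 4.63 FPKM in shControl and at 7.85 and 7.09 FPKM in shLOXL2. Both shLOXL2 libraries lie above both controls, with a gap of 2.30 FPKM against SDs of 0.112 and 0.539 FPKM. The mean was 1.59-fold higher and the log2 change was 0.57 ± 0.072 (SE, limma adjusted p = 0.0279). PUMA's gene remained among the low ones of the family, with 83.4% of tested protein-coding genes above it in control cells. BCL2 stood at 0.543 and 0.608 of the BBC3 level in shControl and at 0.127 and 0.157 of it in shLOXL2.

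PMAIP1 (ENSG00000141682), which encodes NOXA, was the most abundant of the 4 BH3-only members and did not pass. It stood at 95.8 and 97.5 FPKM in shControl and at 96.5 and 102 FPKM in shLOXL2, so the groups overlap. The log2 change was 0.039, with a 95% interval of -0.088 to 0.17 (limma adjusted p = 0.567). That interval lies wholly below the estimate for BBC3. Since NOXA is the partner of MCL1, their ratio is of interest: MCL1 stood at 1.68 and 1.67 times the PMAIP1 level in shControl and at 1.38 and 1.24 times in shLOXL2. The groups do not overlap in that ratio, which follows from the fall of MCL1 given above beside a nearly level PMAIP1.

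BID (ENSG00000015475), which caspase 8 cuts to link death receptors to mitochondria, stood at 35.4 and 34.2 FPKM in shControl and at 38.0 and 39.4 FPKM in shLOXL2. The groups do not overlap, but the log2 change of 0.15 (95% interval 0.031 to 0.27) did not pass (limma adjusted p = 0.0944). BCL2L11 (ENSG00000153094), which encodes BIM, stood at 3.85 and 3.36 FPKM and at 3.19 and 4.33 FPKM. The shLOXL2 libraries span the controls, and the log2 change of 0.039 had a wide 95% interval of -0.43 to 0.51 (limma adjusted p = 0.886). A rise as large as that of BCL2L1 and a fall as large as that of MCL1 both lie within this interval. Across the 10 members the groups did not overlap for 6, where 64.6% of all tested genes did not overlap either, so this count is no more than the share over all genes.

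**Figure D3:**
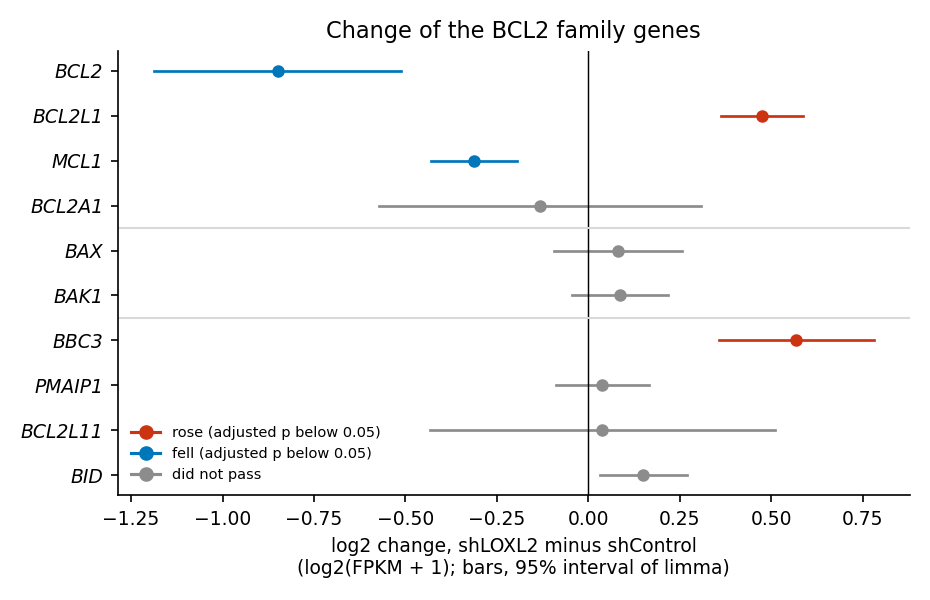
Log2 change of each member between shLOXL2 and shControl, with its 95% interval from limma, on the log2(FPKM + 1) scale. Red marks the 2 genes that rose (BCL2L1 and BBC3), blue the 2 that fell (BCL2 and MCL1) and grey the 6 that did not pass, of which BCL2A1 and BCL2L11 have the widest intervals.

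Summed over the 4 protectors and 6 killers examined here, the balance of protectors to killers stayed nearly the same. The 4 protectors summed to 320 and 324 FPKM in shControl and to 348 and 352 FPKM in shLOXL2. The 6 killers summed to 294 and 304 FPKM and to 319 and 317 FPKM. Both sums were higher in both shLOXL2 libraries, whose FPKM over all genes also summed higher, as given above. The ratio of the sums was 1.09 and 1.07 in shControl and 1.09 and 1.11 in shLOXL2, or 1.08 ± 0.0175 and 1.10 ± 0.0146 (SD, n = 2), and the groups overlap. The ratio depended on which abundant protector was counted. Without BCL2L1 and BAX, the gene of each class with the highest mean over the 4 libraries, it was 1.06 in shControl and 0.792 in shLOXL2. Without MCL1, the most abundant protector in shControl, and BAX, an alternative chosen after seeing the data, it was 1.02 and 1.31. These directions follow from the opposite changes of BCL2L1 and MCL1 given above. BAX and PMAIP1 made up 79.2% and 80.2% of the killer sum in shControl and 78.9% and 78.0% in shLOXL2.

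All 4 calls among the members rested on having 4 libraries. Leaving out any 1 library took the residual degrees of freedom from 2 to 1, with the lone library of a group assumed to vary like the others, and none of the 4 then passed in limma. The adjusted p was 0.165 and 0.167 for BCL2L1 without shControl replicate 1 and 2, and 0.0888 and 0.0949 without shLOXL2 replicate 1 and 2. For MCL1 these were 0.182, 0.189, 0.106 and 0.106, for BCL2 0.158, 0.162, 0.111 and 0.106, and for BBC3 0.190, 0.196, 0.120 and 0.107, in the same order. The sizes moved little: the log2 change ran from 0.44 to 0.51 for BCL2L1, from -0.35 to -0.28 for MCL1, from -0.89 to -0.81 for BCL2 and from 0.50 to 0.63 for BBC3. With no filter on low values, which brings the genes tested to 36224, BCL2L1 passed (adjusted p = 0.0336) and MCL1 (0.0576), BCL2 (0.0749) and BBC3 (0.0720) did not. MCL1 also missed the threshold with a variance prior without a trend (adjusted p = 0.0531).

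**Figure D4:**
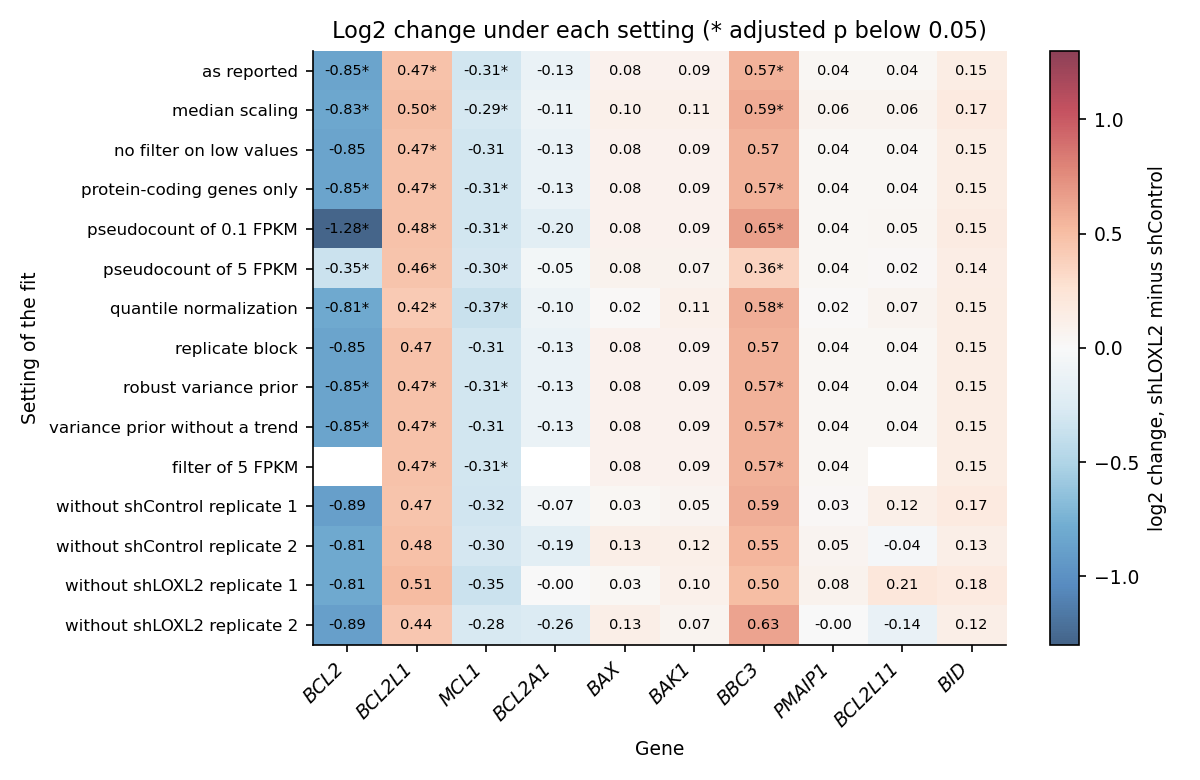
Log2 change of each member (columns) under the reported fit and each alternative (rows), with colour and number giving the change and a star marking an adjusted p below 0.05. BCL2, BCL2L1, MCL1 and BBC3 keep their sign in every row, and no star remains when a library is left out or with the replicate block; blank cells are genes below a filter of 5 FPKM.

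The wider family and the machinery around it were described from lists of 66 other apoptosis genes, drawn up with earlier results of these data known. Of these 59 were tested, 9 rose and 8 fell, with a median log2 change of 0.051. That is 28.8% called, where the share over all genes was 16.9%. In the fit of protein-coding genes alone, 13 of the other apoptosis genes rose and 11 fell. That is close to the share over the 11216 genes of that fit, of which 2136 rose and 2178 fell. The 28.8% and the 9 and 8 are from the reported fit. All 17 calls were lost when any 1 library was left out.

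Of 14 other BCL2 relatives 10 were tested, and 1 rose, where 8.35% of all tested genes rose. BIK, a BH3-only gene of the endoplasmic reticulum, stood at 2.63 and 2.56 FPKM in shControl and at 5.92 and 6.27 FPKM in shLOXL2, with a log2 change of 0.98 ± 0.068 (SE, limma adjusted p = 0.0140). Its change was the largest of the BH3-only genes that passed, ahead of BBC3. BMF, a BH3-only gene tied to loss of attachment, stood at 2.15 and 1.88 FPKM and at 5.88 and 3.72 FPKM. Both shLOXL2 libraries lie above the controls but far apart from each other, and BMF did not pass (log2 0.92 ± 0.22 SE, limma adjusted p = 0.0800). BNIP3L, a mitophagy receptor, had the next smallest p and did not pass (log2 0.13, limma adjusted p = 0.187). The protector BCL2L2 (BCL-W) stood at 13.1 ± 0.662 and 11.7 ± 0.712 FPKM and the pore-forming relative BOK at 10.2 ± 0.148 and 9.87 ± 0.574 FPKM (SD, n = 2), and neither passed. BCL2L10, BCL2L14, BCL2L15 and HRK were below the filter.

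Downstream of the pore, the caspase genes went both ways. In the apoptosome, caspase and mitochondrial release list of 11 genes, 2 rose, 2 fell and 7 did not pass (median log2 change -0.061). The share called over all tested genes was 16.9%. It was higher in the fit of the 11216 protein-coding genes, where 2136 rose and 2178 fell. CASP9, the initiator caspase of the apoptosome, fell from 10.8 and 10.9 FPKM to 8.80 and 8.84 FPKM (log2 -0.27, limma adjusted p = 0.0361), and CASP6 rose from 33.6 FPKM in both controls to 41.0 and 41.6 FPKM (log2 0.29, limma adjusted p = 0.0228). APAF1, the apoptosome scaffold, stood at 22.6 ± 0.465 and 26.0 ± 1.88 FPKM, and CYCS, which encodes cytochrome c, at 155 ± 0.907 and 140 ± 13.0 FPKM (SD, n = 2). Neither passed.

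Of 7 genes of the inhibitor of apoptosis proteins, which restrain caspases and steer receptor signalling, 5 were tested. Of these 1 fell and 0 rose (median log2 change -0.18), where 8.54% of all tested genes fell and 8.35% rose. BIRC2 (cIAP1) fell from 100.3 and 91.7 FPKM to 67.5 and 68.0 FPKM, a log2 change of -0.49 ± 0.056 (SE, limma adjusted p = 0.0243). BIRC5 (survivin) had a log2 change of -0.18 (limma adjusted p = 0.127) and BIRC6 one of -0.20 (limma adjusted p = 0.292), and neither passed. BIRC7 was listed at 0 in all libraries.

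The death receptor list held the most tested genes and the most calls, with 5 that rose and 2 that fell of 13 (median log2 change 0.12). Over all tested genes 16.9% were called, and in the fit of the 11216 protein-coding genes 2136 rose and 2178 fell. With no filter on low values FAS, CFLAR, TNFRSF10D and TRADD missed the threshold (limma adjusted p = 0.0730, 0.0564, 0.0753 and 0.114). CFLAR also missed it with median scaling (limma adjusted p = 0.0506). TNFRSF10B (DR5), a receptor of the death ligand TRAIL, rose from 86.0 and 85.0 FPKM to 120.3 and 119 FPKM, a log2 change of 0.48 ± 0.029 (SE, limma adjusted p = 0.0131). TNFRSF10A (DR4), the other death-inducing TRAIL receptor, rose from 42.0 and 41.2 FPKM to 57.8 and 59.0 FPKM (log2 0.48 ± 0.033 SE, limma adjusted p = 0.0140). The decoy receptor TNFRSF10D rose from 29.5 and 29.8 FPKM to 35.1 and 37.1 FPKM (log2 0.28, limma adjusted p = 0.0386), and the decoy TNFRSF10C, at 1.61 ± 0.0190 and 2.46 ± 0.288 FPKM, did not pass. These 4 receptors resemble one another in sequence, and reads could be divided between them. TNFRSF1A, the main receptor of tumour necrosis factor, rose from 107 and 99.9 FPKM to 151 and 159 FPKM (log2 0.58 ± 0.055 SE, limma adjusted p = 0.0198), and its adaptor TRADD rose from 4.79 and 4.77 FPKM to a mean of 6.22 FPKM (log2 0.32, limma adjusted p = 0.0409). FAS, the receptor of FAS ligand, fell from 5.58 and 5.11 FPKM to 3.02 and 3.15 FPKM (log2 -0.63 ± 0.075 SE, limma adjusted p = 0.0261). CFLAR, which encodes the caspase 8 inhibitor FLIP, fell from 31.9 and 32.4 FPKM to 27.2 FPKM in both shLOXL2 libraries (log2 -0.23, limma adjusted p = 0.0317). CASP8 itself, at 25.1 and 30.6 FPKM and at 35.4 and 25.01 FPKM, varied more within the groups than between them.

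**Figure D5:**
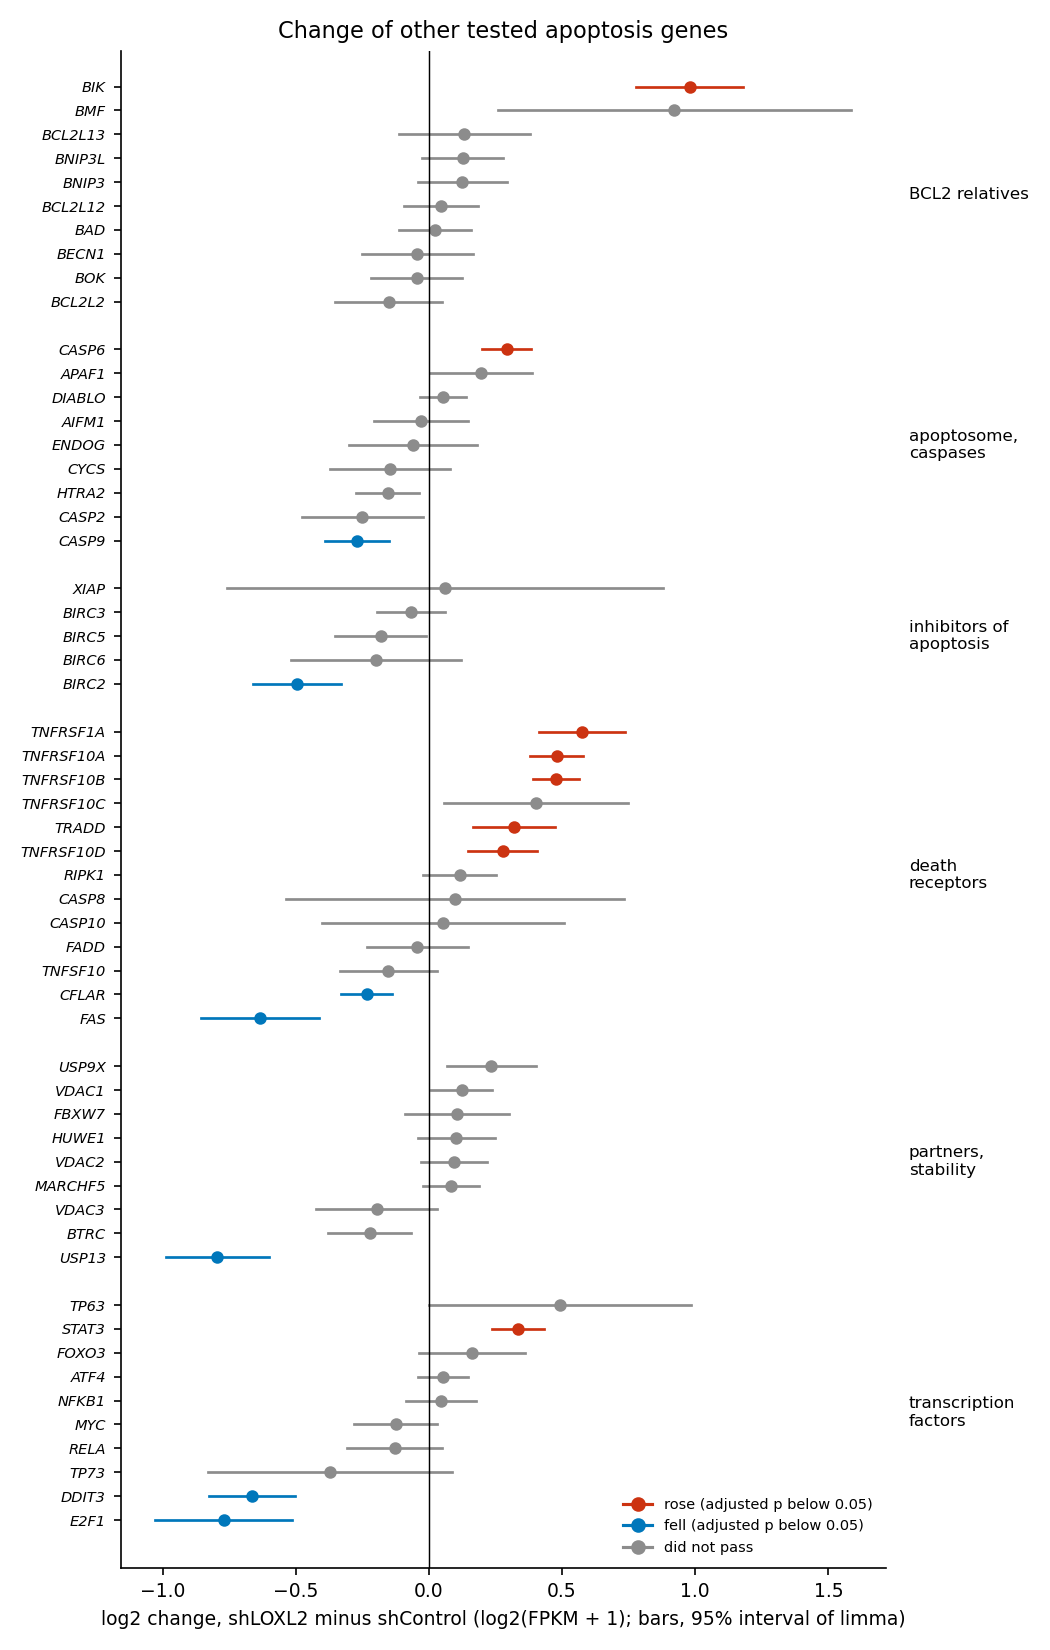
Log2 change between shLOXL2 and shControl of 56 of the other apoptosis genes that were tested, grouped by list, with 95% intervals from limma on the log2(FPKM + 1) scale. Red marks genes that rose, blue those that fell and grey those that did not pass.

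Genes that act on the family's proteins mostly did not pass, with 1 that fell of 9 (median log2 change 0.095), where 8.54% of all tested genes fell. USP13, a deubiquitinase reported to stabilise the MCL1 protein, fell from 14.5 and 13.1 FPKM to 7.52 and 7.49 FPKM, a log2 change of -0.79 ± 0.065 (SE, limma adjusted p = 0.0166). USP9X, another deubiquitinase of MCL1, had a log2 change of 0.23 (limma adjusted p = 0.0778), and BTRC, a ubiquitin ligase subunit, one of -0.22 (limma adjusted p = 0.0763). VDAC2, a channel that binds BAK1 and BAX on the outer membrane, averaged 35.2 FPKM (SD 0.601) in shControl and 37.6 FPKM (SD 1.25) in shLOXL2 and missed the threshold.

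Of 11 transcription factors known to act on family genes, 1 rose and 2 fell (median log2 change 0.046), where 16.9% of all tested genes were called. STAT3, which can drive BCL2L1 and MCL1, rose from 74.4 and 72.7 FPKM to 94.0 and 92.0 FPKM, a log2 change of 0.34 ± 0.033 (SE, limma adjusted p = 0.0200). DDIT3 (CHOP), a stress factor that can repress BCL2 and induce BIM, PUMA and DR5, fell from 31.9 and 34.6 FPKM to 20.8 and 20.4 FPKM (log2 -0.66 ± 0.055 SE, limma adjusted p = 0.0167). E2F1, a cell cycle factor that can induce several BH3-only genes, fell from 21.2 and 21.7 FPKM to 11.2 and 13.1 FPKM (log2 -0.77 ± 0.087 SE, limma adjusted p = 0.0241). MYC, at 121 ± 5.21 and 111 ± 4.42 FPKM (SD, n = 2), did not pass.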

How the data were processed

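RNA from 2 shControl and 2 shLOXL2 libraries was analysed, grouped by sample title. The authors deposited FPKM values for 63657 Ensembl genes. Cufflinks, Bowtie and GRCh37 are named, per the submitters' processing notes, without naming an annotation. FPKM carries no read counts, so depth is unknown and no counting error is given. The commonest ratio among values of 245 small RNA genes was 0.988 between shControl libraries and 1.05 between shLOXL2 libraries. The translation factor gene EEF1A1 is listed at 0 in all 4 libraries, so a 0 can be a failed estimate. Symbols were matched for 39694 identifiers, 87.5% of tested genes.

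Genes averaging at least 1 FPKM were fitted as log2(FPKM + 1) with limma (intensity trend, two-sided, Benjamini-Hochberg over 16987 genes, threshold 0.05), and the script was tested on simulated data. Named genes were the 10 members, LOXL2, and from each other list those past the threshold, or the smallest p up to 3. Others named (BCL2L2, BAD, BOK, APAF1, CYCS, TNFRSF10C, CASP8, VDAC2, MYC, XIAP, CASP10, TP63, TP73) were chosen after their values were seen. The members and lists were chosen with earlier results of these data known. Peak lists were not used, because no GRCh37 annotation was at hand. Values of a few listed genes are not reported here, although they stay in the counts. Motifs were counted in RefSeq promoter windows. Alternatives covered the pseudocount, filter, scaling, variance prior, gene class, replicate block and each library left out. Fits used limma 3.58.1 under R 4.3.3. Tables were handled with pandas 2.3.3 under Python 3.11.15, and plots drawn with matplotlib 3.10.9.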

Additional observations from a re-analysis of the deposited data

How the results depend on the processing

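Over all genes, limma called 1419 that rose and 1450 that fell. Keeping genes of every level gave 601 and 542. There were 2136 and 2178 of 11216 with protein-coding genes alone, and 926 rose with a variance prior without a trend. With 1 library left out, 18 to 220 rose and 70 to 217 fell. Of the members, 2 rose and 2 fell. Without a filter 1 rose and 0 fell (5 at an unadjusted p below 0.05), with a filter of 5 FPKM 1 fell because BCL2 was not tested, and with a prior without a trend 1 fell. With any 1 library left out 0 members passed in limma in either direction, with 4 or 5 at an unadjusted p below 0.05. Of the other apoptosis genes, 9 rose and 8 fell in the reported fit, 2 fell without a filter, and 0 passed with a library left out, with 16 to 28 at an unadjusted p below 0.05. These fits have 1 residual degree of freedom.

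The labels do not say that a replicate number marks a shared batch, and libraries of the same number did not deviate together (correlation -0.00127 over tested genes). With the replicate number as a block 0 genes passed in limma in either direction, members and other apoptosis genes included, with 5519 genes, 4 members and 24 of the other apoptosis genes at an unadjusted p below 0.05. Signs changed for 2 members that had not passed: PMAIP1 ran from -0.0024 to 0.079 and BCL2L11 from -0.14 to 0.21 over the fits with a library left out. The ratio of protector to killer FPKM was 1.06 in shControl and 0.792 in shLOXL2 without BCL2L1 and BAX, which have the highest mean of their class over the 4 libraries. It was 1.02 and 1.31 without MCL1 and BAX, an alternative chosen after seeing the data. With 2 libraries a group and no read counts, small changes of low genes could not be resolved.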

Other observations

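Replicates of some apoptosis genes differed more than the groups. XIAP, which encodes a direct caspase inhibitor, stood at 24.8 and 18.6 FPKM in shControl and at 18.0 and 27.9 FPKM in shLOXL2, and did not pass (limma adjusted p = 0.897). CASP10, a relative of CASP8, stood at 4.02 and 3.94 FPKM and at 4.87 and 3.54 FPKM and did not pass (limma adjusted p = 0.836). In the transcription factor genes TP63 and TP73 the groups did not overlap and pointed in opposite directions, with TP63 at 0.746 and 0.695 FPKM and then 1.61 and 1.24 FPKM, and TP73 at 1.24 and 1.46 FPKM and then 0.755 and 0.875 FPKM. Neither passed (limma adjusted p = 0.140 and 0.196). These genes were chosen after their values were seen.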
